A study of Drosophila melanogaster with 4 samples.

Results

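Pigment cells of the adult *Drosophila* eye and the glia captured with them are support cells of photoreceptors. Their transcripts were compared within the same 4 single-cell libraries. Cone cells also support photoreceptors but were not a side of the comparison, and the study itself removed glia as cells from outside the eye. The members were chosen by the measured share of a few transcripts. Pigment cells were barcodes with at least 5% of their UMIs from *Pdh* and no UMI of *repo*. Glia were barcodes with at least 1 UMI of *repo* and under 2% of their UMIs from *Pdh*. A UMI, or unique molecular identifier, marks a single captured RNA molecule. Both sides were also required to have over 200 genes, under 20% mitochondrial UMIs, under 2% of UMIs from *ninaE*, which encodes the rhodopsin of the outer photoreceptors, and no UMI of the neuronal gene *fne*. These limits kept 7157 of 40076 barcodes, 6671 pigment cells and 486 glia.

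The eyes came from *Canton-S* flies, a wild-type laboratory strain, and the libraries were 1-day-old males, 3-day-old males, 7-day-old males and 1-day-old females, with 1 library each. Each library pooled 40 eyes, which were dissected and dissociated in Actinomycin D, an inhibitor of transcription. The pigment cells numbered 3678, 1232, 885 and 876 in these libraries, and the glia 158, 84, 87 and 157. Sets of 4 values are given in this order throughout, males at 1, 3 and 7 days and then females. Ages and sexes had no replicate, so the libraries served as paired replicates of the cell type contrast and no age or sex was tested. As a reference for genes that every cell of the eye uses, 16799 photoreceptors of the same libraries were summed as well. They had at least 5% of their UMIs from *ninaE*. The genes *Rh3* to *Rh6* of the inner photoreceptors took at least 1% of UMIs in 17.9 to 22.1% of these cells, so the group was not limited to outer photoreceptors.

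Pigment cells surround each ommatidium, the optical unit of the compound eye, and screen it from stray light with granules of pteridine and ommochrome pigments. They also take part in making the visual chromophore from carotenoids. Glia lie beneath the retina and around the axons of the photoreceptors, where different kinds insulate them, form the blood-brain barrier and take up and recycle transmitters. *Pdh* encodes a dehydrogenase of pigment cells that acts on retinoids, and *repo* a homeodomain factor carried by nearly all lateral glia.

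The genes of the gates describe the choice of cells and were not tested. *Pdh* had a median share of 13.8, 16.2, 16.5 and 11.1% of UMIs in pigment cells, against 0.120, 0.0428, 0.0601 and 0.0307% in glia, and 0.0838, 0.0396, 0.0338 and 0.0161% in photoreceptors. The lowest shares of *Pdh* inside the pigment limit were 5.00 to 5.26% over the libraries, and the highest just outside were 4.87 to 4.99%. *repo* stood at 0 in pigment cells by the rule and at 228, 239, 275 and 177 CPM (UMIs of the gene per 1000000 UMIs of a sum) in glia, and 75, 44, 59 and 62 of the glia carried a single *repo* UMI. *ninaE* had 1382 to 2628 CPM in pigment cells, against 857 to 1759.7 CPM in glia, and 118479 to 170349 CPM in photoreceptors. Only 10, 1, 1 and 0 barcodes passed the *Pdh* limit with a *repo* UMI, and they were on neither side.

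The 2 sides differed in depth per cell. Pigment cells had medians of 1464, 1866, 1357 and 2216 UMIs, against 8699, 7336, 5077 and 14199 UMIs in glia. The median mitochondrial share was 2.52 to 5.18% in pigment cells and 9.31 to 9.72% in glia. The summed libraries held 1810145 to 9982812 UMIs in pigment cells and 491445 to 2295104 UMIs in glia. Between 12 and 37 barcodes recurred in each pair of libraries.

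Markers other than the gate genes were in their labelled cells. Summed over the list of known pigment genes without *Pdh*, the level was 67572 to 103548 CPM in pigment cells, against 8817 to 15734 CPM in glia, and 877 to 1761 CPM in photoreceptors. The list of glial genes, with the gate gene *repo* counted in it, summed to 6255 to 7175 CPM in pigment cells, against 19583 to 26513 CPM in glia, and 234 to 531 CPM in photoreceptors. By the rule *repo* adds to the sum in glia only, at the CPM given above, and it is not among the tested members. Of its 27 tested members 19 were higher in glia and none in pigment cells, whereas 11 of 13 tested genes of the pigment list were higher in pigment cells and none in glia. Markers of other cells were also present. Neuronal genes summed to 118 to 450 CPM in pigment cells and 125 to 336 CPM in glia, against 5335 to 8326 CPM in photoreceptors. Markers of muscle stood at 0 to 5.81 CPM in pigment cells and 0 to 2.03 CPM in glia. Fat body genes summed to 13.8 to 51.2 CPM in pigment cells, against 1427, 413, 147 and 1957 CPM in glia, and 220 to 418 CPM in photoreceptors. The photoreceptor list, with the gate gene *ninaE* counted in it, summed to 4383 to 9605 CPM in pigment cells. It stood at 4373, 10129, 3620 and 2895 CPM in glia, against 263683 to 354195 CPM in photoreceptors. The cone cell gene *retinin*, which encodes a protein of the corneal lens, had 15118, 79422, 25979.7 and 4012 CPM in pigment cells, against 173, 202, 63.1 and 91.9 CPM in glia. In pigment cells its 3-day library stood far above the others, and its part in the other results was not tested. The cone cell list had 4 tested genes, of which *retinin* and *Crys* were higher in pigment cells and *ct* and *pros* higher in glia. Hemocyte genes reached 5624 CPM in the 7-day glia, against at most 149 CPM in the other glia, and nearly all of it was *PPO1* and *PPO2*, the prophenoloxidases of crystal cells, in 3 barcodes.

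Of 6038 genes tested, 1014 (16.8%) were higher in pigment cells and 1216 (20.1%) higher in glia, at an adjusted p under 0.05 and more than a 2-fold difference in edgeR's quasi-likelihood test with Benjamini-Hochberg adjustment. Either call covered 36.9% of the genes tested, and these shares are the background for the counts of each gene list below. The values of the 4 libraries did not overlap between the sides for 2662 genes (44.1%). A gene with almost no UMIs on one side passed the count filter through the other side only. Calls of such genes below were thus largely set by the filter, and their fold changes and p-values are a description. The median log2 fold change of pigment cells over glia was -0.02 over all genes tested. Fold changes rest on totals scaled by TMM factors, 0.871 to 1.05 in pigment cells and 1.02 to 1.11 in glia, so they lie above the ratios of the printed CPM, which are not scaled. The glia were of more than one kind. *Vmat* glia and *e* glia are those with at least 3 UMIs of one gene and fewer of the other, a split made after values were seen. A call lost or a direction turned over one kind is given with its log2 fold change. Calls gained without such a turn are not listed, for 10 of 177 named genes over *Vmat* glia and 14 of 165 over *e* glia. A missing call or a difference within 2-fold thus refers to all glia together. *Hex-A*, for example, had means of 1265 CPM in pigment cells, 1397 CPM in *Vmat* glia and 359 CPM in *e* glia. The *e* glia were few, and their sums also held transcripts of other cells, as given below. In sums over cells, a gene carried by few cells of a side and a gene carried at a low level by all of them cannot be told apart.

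**Figure D1:**
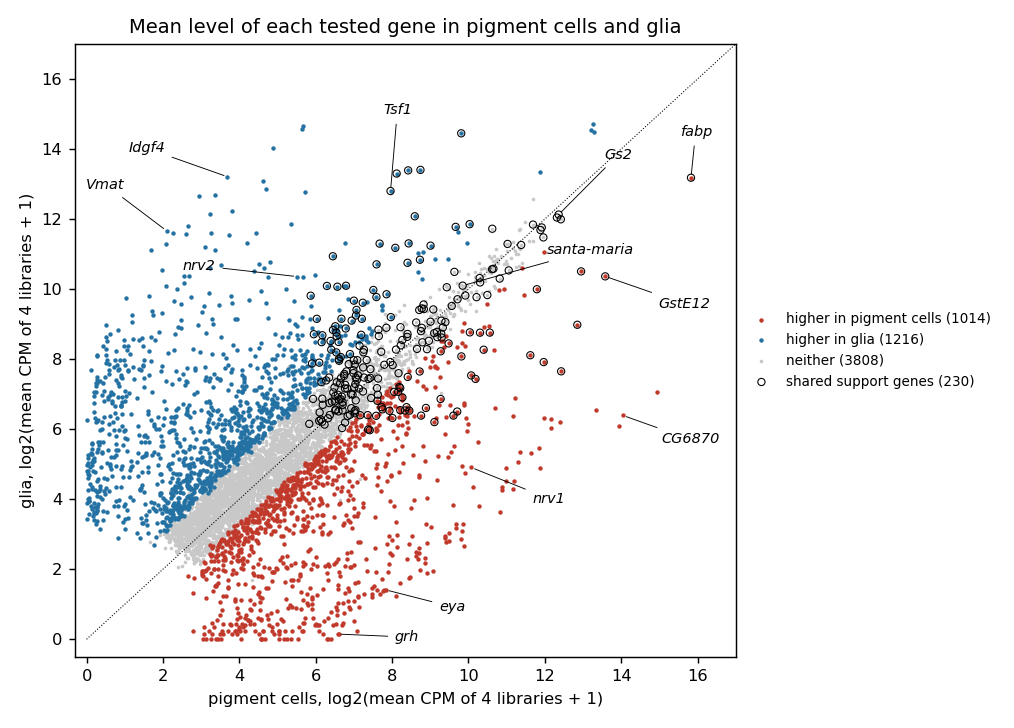
Mean level of each of the 6038 tested genes, as log2(mean CPM of 4 libraries + 1), in pigment cells (x axis) and glia (y axis), with the 1014 genes higher in pigment cells in red, the 1216 higher in glia in blue and the 230 shared support genes circled. Genes of both colours reach the axes, where the other side had almost no UMIs, and the circled genes lie where both sides were over 50 CPM.

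Among the genes with the largest difference, those of pigment cells included regulators of the developing eye and of epithelia. *eya*, a gene of the retinal determination network at chr2L:6527447-6546976, had 234, 189.8, 165 and 318 CPM in pigment cells, against 0.680, 1.46, 4.07 and 0.436 CPM in glia. No value of one side reached the other, and the log2 fold change was 8.04 ± 0.45 (SE, n = 4 pairs, adjusted p = 1.7e-06). *grh*, which encodes the epithelial transcription factor Grainy head, had 88.0, 93.4, 124 and 72.8 CPM in pigment cells, against 0, 0, 0 and 0.436 CPM in glia, where the glial value is a single UMI. The counts gave a pigment to glia ratio of 444 (95% counting interval 79.6 to 17549). Leaving out a library moved the log2 fold change of *eya* to as little as 7.24 (without the female library) and as much as 8.77 (without the 7-day library).

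*CG6870* was the most abundant gene of this group. It had 14000.2, 19874, 17995 and 15757 CPM in pigment cells, against 131, 84.9, 59.0 and 57.5 CPM in glia, and 111 to 174 CPM in photoreceptors (log2 fold change 7.94 ± 0.32, SE, adjusted p = 4.3e-07). The level in glia was thus no higher than in photoreceptors. *DIP-epsilon*, a cell-surface protein of the immunoglobulin family at chr2L:6377771-6411326, had 252, 130.0, 82.9 and 352 CPM in pigment cells, against 1.36, 1.46, 2.03 and 0.871 CPM in glia (log2 fold change 7.83 ± 0.37, SE, adjusted p = 8.1e-07). The 1-day libraries of both sexes gave its 2 highest pigment values, and every glial value was under 2.1 CPM. Without the female library its log2 fold change was 7.11.

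The other 6 genes of the group had 1 to 3 UMIs in all glia together. Ratios of pigment cells to glia were 583 (95% counting interval 104 to 23027) for *CG15528*, 483 (95% counting interval 86.7 to 19105) for *CG9649* and 328 (95% counting interval 58.8 to 12972) for *CG14132*. They were 318 (95% counting interval 56.9 to 12553) for *Coop*, a corepressor in Wnt signalling, 230.4 (95% counting interval 78.7 to 1118) for *Prat2*, an enzyme of the first step of purine synthesis, and 174 (95% counting interval 59.5 to 845) for the cytochrome P450 gene *Cyp4p1*. These intervals cover counting error only. In pigment cells the 6 genes ranged from 53.2 CPM for *CG14132* to 186 CPM for *CG15528* over the libraries.

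The 10 genes with the largest difference in glia had at most 15.6 CPM in any pigment sum. *Vmat*, the vesicular monoamine transporter, had 5.81, 2.76, 0.552 and 3.96 CPM in pigment cells, against 4313, 2578, 2480.4 and 3628 CPM in glia, and 1.49 to 6.24 CPM in photoreceptors. The sides were far apart in every library (log2 fold change -9.66 ± 0.36, adjusted p = 3.6e-07). *Ect3*, which encodes a beta-galactosidase, had 12.3, 3.76, 2.21 and 8.53 CPM in pigment cells, against 8723, 4686, 4355 and 7942 CPM in glia (log2 fold change -9.73 ± 0.33, SE, adjusted p = 3.0e-07). *Cln3*, a protein of the lysosomal membrane at chr3L:17809231-17814119, had 4.21, 4.77, 1.10 and 5.18 CPM in pigment cells, against 3613, 2203, 2230.2 and 4421 CPM in glia (log2 fold change -9.37 ± 0.34, SE, adjusted p = 3.5e-07). Its pigment values overlapped those of photoreceptors, 1.21 to 5.54 CPM.

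*Idgf4*, a secreted chitinase-like protein at chrX:9927973-9930948, had 15.6, 9.54, 9.94 and 12.5 CPM in pigment cells, against 11802, 9107, 6267 and 10693 CPM in glia (log2 fold change -9.41 ± 0.24, SE, adjusted p = 3.0e-07). *teq*, a serine protease gene, had 5.61, 1.25, 0 and 2.13 CPM in pigment cells, against 2242, 2194, 2896 and 1463 CPM in glia (log2 fold change -9.49 ± 0.59, SE, adjusted p = 2.9e-06). *side*, which encodes the cell-surface protein Sidestep, had 0.601, 0.502, 0.552 and 0 CPM in pigment cells, against 464, 237, 319 and 557 CPM in glia (log2 fold change -9.43 ± 0.39, SE, adjusted p = 4.9e-07). None of the 3 overlapped between the sides, and without the 1-day male library *teq* had a log2 fold change of -10.38. *CG4797* had 0 to 0.753 CPM in pigment cells, against 294 to 789 CPM in glia (log2 fold change -9.65 ± 0.38, SE, adjusted p = 4.1e-07). *CG8837* had 0 to 0.502 CPM in pigment cells, against 160.4 to 527 CPM in glia (log2 fold change -9.44 ± 0.36, SE, adjusted p = 3.9e-07), or -10.07 without the 1-day male library, and these too lay far apart. *side*, *CG4797* and *CG8837* passed the count filter through their glial sums only, so their calls are a description. The tetraspanin gene *lbm* had 2 UMIs in all pigment cells and 167, 199, 248 and 210.0 CPM in glia, and its level in glia over that in pigment cells was 1902 (95% counting interval 525 to 15726). *CG4301* had no UMI in pigment cells and 58.5, 68.8, 81.4 and 95.4 CPM in glia, at least 504-fold higher in glia with a floor of 3 counts over all pigment cells.

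**Figure D2:**
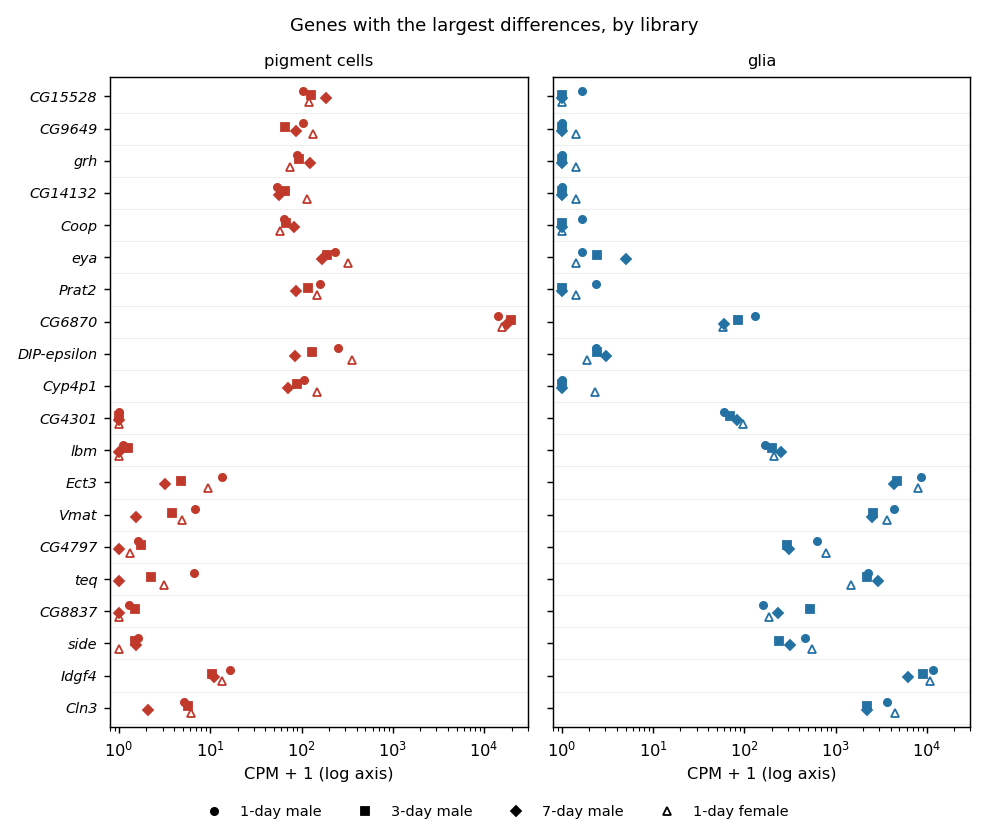
Level in each library, as CPM + 1 on a log axis, of the 10 genes with the largest difference in each direction, with pigment cells in the left panel, glia in the right and a symbol for each library. The points of the sides do not overlap for any of the 20 genes, and *CG4301* has no UMI in any of the 4 pigment sums.

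A gene was taken as shared when it was over 50 CPM in each of the 8 sums, and 974 genes were. For 541 of these (55.5%) the 95% interval of the log2 fold change lay between -1 and 1, so a difference of 2-fold or more was outside the interval, against 33.8% of all genes tested. A further 132 shared genes were higher in pigment cells, 104 were higher in glia, and 197 were neither called nor held within 2-fold. Shared genes are abundant by their rule, and their median SE was 0.162 against 0.238 over all genes tested. The rule also leaves out every gene with a low level on one side, so the larger share within 2-fold was in part set in advance. Part of the shared set is machinery of every cell. Of 83 tested genes of cytosolic ribosomal proteins, 81 were shared and 76 were held within 2-fold, with a median log2 fold change of 0.14. Genes of the mitochondrial genome went the other way, with 11 of 13 tested higher in glia, a median of -1.45 and none held within 2-fold. The gate limited the mitochondrial share of each cell.

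To find what the support cells share beyond such genes, the shared genes were set against the photoreceptors of the same libraries. Both contrasts use the same photoreceptor sums. Of the 974 shared genes, 230 (23.6%) were more than 2-fold higher than in photoreceptors in pigment cells and in glia alike, and they are called shared support genes here. Among 6947 genes tested in these contrasts, 1929 (27.8%) were higher in pigment cells than in photoreceptors, 1841 (26.5%) higher in glia than in photoreceptors, and 1242 (17.9%) higher in both. Between the support cells, 88 of the 230 (38.3%) were held within 2-fold, 44 were higher in pigment cells, 52 higher in glia and 46 neither. The share held within 2-fold was 55.5% over all 974 shared genes and 33.8% over all genes tested. Either call covered 41.7% of the 230, against 24.2% of the shared genes and 36.9% of all genes tested. A smaller share of the support genes than of shared genes in general was thus held within 2-fold. Choosing genes by a difference from photoreceptors leaves out genes at even levels in every cell, so this was in part set by the choice. The median SE of the support genes was also larger, 0.180 against 0.162.

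*santa-maria* was the clearest example. It encodes a scavenger receptor that takes up carotenoids, and lies at chr2L:7445355-7451244. It had 839, 874, 833 and 1139 CPM in pigment cells, against 1038, 1196, 710.2 and 1438 CPM in glia, and 9.01 to 10.2 CPM in photoreceptors. The sides overlapped fully, with a log2 fold change of -0.00 ± 0.15 (95% interval -0.36 to 0.35), and both stood above photoreceptors, by log2 fold changes of 6.14 in pigment cells and 6.09 in glia. *Timp*, an inhibitor of metalloproteases, had 705, 654, 833 and 569.6 CPM in pigment cells, against 877, 1676, 962 and 732 CPM in glia (95% interval -0.81 to 0.12). Its 3-day glia stood above the rest. Over *e* glia alone the log2 fold changes were 6.66 for *santa-maria* and 3.19 for *Timp*.

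*GLaz*, the lipocalin related to apolipoprotein D, had 405, 452, 505 and 457 CPM in pigment cells, against 838, 575, 682 and 659 CPM in glia. Every glial value was above every pigment value, yet the interval of -0.75 to -0.00 held the difference within 2-fold. *CG15739* and *CG5346* were also within 2-fold, with intervals of -0.77 to 0.29 and -0.81 to -0.08. For *Irk2*, an inwardly rectifying potassium channel, the levels were 922, 557, 592 and 1099.8 CPM in pigment cells, against 1820.2, 1229.7, 1019 and 1688 CPM in glia. Glia were higher in each library with a log2 fold change of -0.67 ± 0.15, which is under the limit of a call. *Lsd-2*, a perilipin of lipid droplets, had 154, 209.8, 119 and 312 CPM in pigment cells, against 368, 452, 208 and 803 CPM in glia (log2 fold change -0.92 ± 0.15, SE, adjusted p = 0.0011), also short of 2-fold. *Idgf2*, a relative of *Idgf4*, had a log2 fold change of -0.77 ± 0.21 and *CG31676* one of -0.74 ± 0.26, and neither was called, although *CG31676* was (-1.05) without the 7-day library. Of the 10 shared support genes that stood highest over photoreceptors, only *egr*, the TNF ligand Eiger, was called, with 80.7, 55.2, 54.1 and 79.2 CPM in pigment cells, against 292, 143, 173 and 342 CPM in glia (log2 fold change -1.55 ± 0.18, SE, adjusted p = 0.00013). The smaller of the log2 fold changes over photoreceptors was 5.92 or more for each of the 10. Over *e* glia the direction turned for *CG15739* (3.76), *CG5346* (1.79), *Irk2* (1.55) and *egr* (0.15).

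**Figure D3:**
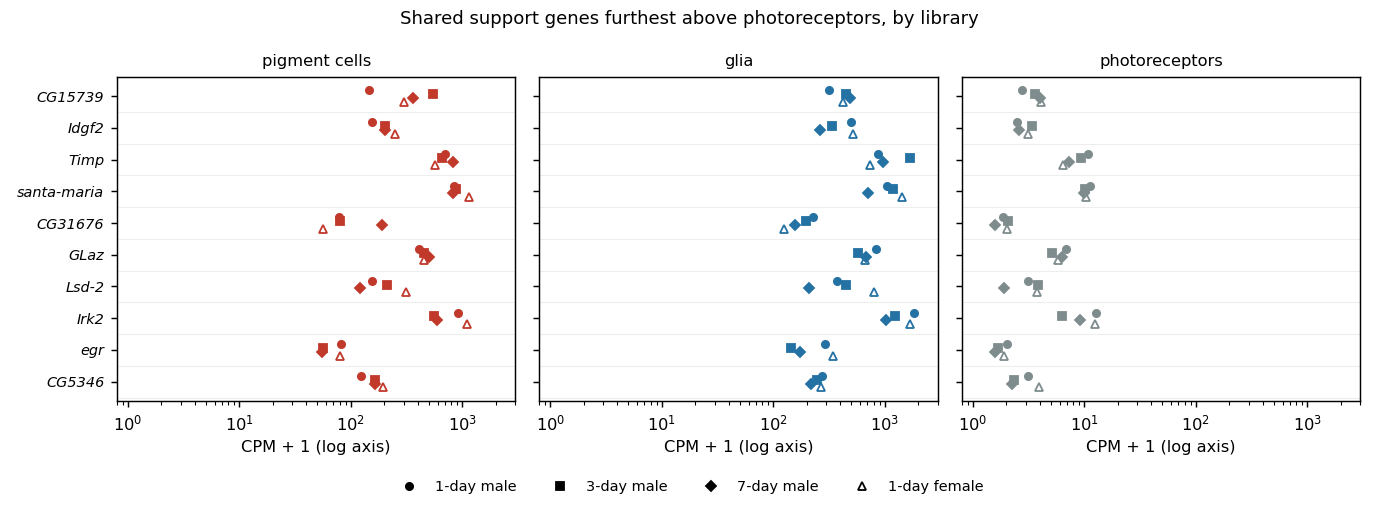
Level in each library, as CPM + 1 on a log axis, of the 10 shared support genes that stood highest over photoreceptors, with panels for pigment cells, glia and photoreceptors and a symbol for each library. The points of pigment cells and glia lie close together for *santa-maria*, *CG15739* and *Timp*, and all of them lie far above the photoreceptors.

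At the level of cells, shared genes were found in many cells of both sides. With each cell thinned to 1000 UMIs, *santa-maria* was found in 48.3 to 57.1% of pigment cells, against 44.2 to 59.5% of glia and 0.526 to 1.32% of photoreceptors over the libraries. Without thinning the shares were 59.8 to 70.8%, 61.9 to 73.9% and 1.91 to 7.93%. *Gs2*, the glutamine synthetase gene, was in 97.4 to 98.3% of thinned pigment cells and 64.9 to 76.5% of thinned glia, against 4.26 to 8.20% of photoreceptors, or 97.6 to 99.1%, 85.7 to 94.9% and 9.38 to 32.6% without thinning. Both support cells were above the shares in photoreceptors, which had medians of 1949 to 8788 UMIs. The part of free RNA, doublets and own transcripts in the photoreceptor shares was not tested. Thinning left out 1320, 350, 347 and 215 pigment cells, 7, 7, 1 and 4 glia, and 125, 387, 565 and 235 photoreceptors under 1000 UMIs.

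Glutamate handling is the textbook task of glia, in which transporters clear the transmitter and glutamine synthetase converts it. Here 4 of 10 tested genes of glutamate and GABA handling were higher in glia, none was higher in pigment cells, and 5 of the remaining 6 were held within 2-fold. Over all genes tested 20.1% were higher in glia, 16.8% higher in pigment cells and 33.8% held within 2-fold. The share with a call was thus near the 36.9% of all genes tested. *Gs2* had 5556, 5256, 4998 and 5268 CPM in pigment cells, against 4345, 3828, 4021 and 5717 CPM in glia, and 52.9 to 80.5 CPM in photoreceptors. The sides overlapped, with an interval of 0.05 to 0.89. *Eaat1*, the glutamate transporter of glia, had 131, 54.5, 58.6 and 151 CPM in pigment cells, against 218, 138, 83.4 and 193 CPM in glia (interval -0.92 to -0.10), and 1.16 to 10.7 CPM in photoreceptors. *Got1*, an aspartate aminotransferase, had an interval of -0.13 to 0.80, and *Got2*, its mitochondrial counterpart, had a log2 fold change of 0.84 ± 0.17 and was not called.

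Genes of GABA differed. *Gat*, the GABA transporter of astrocyte-like glia, had 3.31, 3.26, 0 and 0.914 CPM in pigment cells, against 48.3, 104, 63.1 and 6.97 CPM in glia (log2 fold change -4.21 ± 0.45, SE, adjusted p = 7.7e-05). Its female value in glia was the lowest of the 4, yet still above every pigment value. *Gabat*, the GABA transaminase, had 6.51, 3.51, 1.66 and 6.40 CPM in pigment cells, against 450.0, 773, 474 and 511 CPM in glia (log2 fold change -6.60 ± 0.37, SE, adjusted p = 1.8e-06). The glutamate and aspartate transporter gene *Eaat2* and the amino acid transporter gene *gb* were also higher in glia, with log2 fold changes of -3.54 ± 0.29 and -4.49 ± 0.27, and photoreceptors had 282 to 424 CPM and 59.5 to 101 CPM. *Eaat2* was not called over *Vmat* glia (-0.35).

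Carotenoids are taken up, cleaved and further converted to make the chromophore of rhodopsin. Of 5 tested genes of this pathway 2 were higher in pigment cells, none in glia, and 4 were shared support genes. *ninaB*, which encodes the enzyme that cleaves carotenoids, had 347, 332, 368 and 298 CPM in pigment cells, against 353, 729, 122 and 384 CPM in glia, with an interval of -0.62 to 0.99 and full overlap. *rdhB*, a retinol dehydrogenase, had 7815, 8827, 7279.5 and 7749.6 CPM in pigment cells, against 1851, 1635, 737 and 1589 CPM in glia (log2 fold change 2.74 ± 0.22, SE, adjusted p = 1.2e-05). The glial level was nevertheless above 45.4 to 89.1 CPM in photoreceptors. The retinoid-binding gene *pinta* had 7.31 to 31.5 CPM in pigment cells, against 13.5 to 223 CPM in glia and was not called (log2 fold change -1.06 ± 0.64, SE, adjusted p = 0.19), except without the 1-day male library (-1.77).

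Of 15 tested genes that handle fatty acids and lipids 3 were higher in pigment cells, 4 higher in glia and 8 not called, which is near the 16.8% and 20.1% of all genes tested. *fabp*, a fatty acid binding protein, had 65112, 51081, 48294 and 68413 CPM in pigment cells, against 12202, 8384, 7012 and 9546 CPM in glia, and 388 to 849.6 CPM in photoreceptors (log2 fold change 2.88 ± 0.20, SE, adjusted p = 4.8e-06). It was among the most abundant genes of both support cells. *Fatp1*, a fatty acid transporter, had 851, 384, 366 and 1059.6 CPM in pigment cells, against 85.0, 38.1, 22.4 and 81.5 CPM in glia (log2 fold change 3.79 ± 0.17, SE, adjusted p = 7.1e-07), and its glial values overlapped those of photoreceptors, 33.8 to 71.5 CPM. Higher in glia were the lipoprotein receptor gene *LpR1* (-5.53 ± 0.33), the lipocalin gene *NLaz* (-2.88 ± 0.26) and the sterol-binding gene *Npc2a* (-1.12 ± 0.15). The apolipophorin gene *apolpp* had 149, 0.251, 0.552 and 0.609 CPM in pigment cells, against 156, 176, 109.9 and 74.5 CPM in glia (log2 fold change -4.24 ± 1.34, SE, adjusted p = 0.027), and this call was lost without the 3-day (-2.98), 7-day (-3.46) or female (-3.52) library. Without the 1-day male library the values were -7.69 for *apolpp* and -6.24 for *LpR1*. The genes of fatty acid synthesis *ACC* and *FASN1* and the desaturase gene *Desat1* were not called, and *Desat1* had an interval of -0.02 to 0.74. *Npc2a* lost its call over *e* glia (-0.76), where *ACC* had 1.23, and *apolpp* over *Vmat* glia (-1.03) and without the block (-1.43).

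Glia are known to break down sugar and to pass lactate on to neurons. Of 20 tested genes of sugar metabolism and lactate transport, 13 were shared support genes, 9 were higher in pigment cells and 2 higher in glia, with a median log2 fold change of 0.82 against -0.02 over all genes. *Gapdh1*, a glyceraldehyde phosphate dehydrogenase, had 2240.4, 1856, 1849 and 2387 CPM in pigment cells, against 2779.9, 2419.8, 2269 and 2544 CPM in glia, and 54.2 to 105 CPM in photoreceptors. Its interval between the support cells was -0.40 to 0.29. The hexokinase gene *Hex-A*, *Pgk* and *Eno* were likewise within 2-fold, with intervals of -0.09 to 0.68, 0.32 to 1.00 and 0.05 to 0.77. *Pgi*, *Ald1*, *Gapdh2*, *Pglym78* and *PyK* had log2 fold changes of 0.67 to 0.89 and were not called. Their intervals reached past 2-fold.

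Among the called members, *Tpi*, the triose phosphate isomerase, had 3566, 3260.4, 3574 and 3790.1 CPM in pigment cells, against 951, 1028, 1074 and 1029 CPM in glia (log2 fold change 2.01 ± 0.16, SE, adjusted p = 1.3e-05). *Pfk*, the phosphofructokinase, had 299, 213, 219 and 408 CPM in pigment cells, against 138, 114, 153 and 127 CPM in glia (log2 fold change 1.29 ± 0.22, SE, adjusted p = 0.0011). Neither overlapped between the sides. *GlyP*, which breaks down glycogen, had 1036, 512, 451 and 1603 CPM in pigment cells, against 385, 215, 136 and 339.9 CPM in glia (log2 fold change 1.88 ± 0.19, SE, adjusted p = 4.8e-05), and *GlyS*, which builds it, a log2 fold change of 2.16 ± 0.23. Both genes of glycogen were thus higher in pigment cells. The pentose phosphate genes *Zw*, *Pgd* and *Taldo* had log2 fold changes of 5.83 ± 0.52, 2.18 ± 0.25 and 2.03 ± 0.20. *fbp*, the fructose bisphosphatase, had 270.0, 210.3, 279 and 364 CPM in pigment cells, against 2.04, 1.46, 20.3 and 3.92 CPM in glia (log2 fold change 6.07 ± 0.51, SE, adjusted p = 1.8e-05). Leaving out the 7-day library, whose glia were highest, moved *fbp* to 7.00, and *Zw* had 6.54 without the 1-day male and 4.96 without the female library. Those higher in glia handle trehalose, the blood sugar of insects. The trehalose transporter gene *Tret1-1* had 3.41, 4.27, 10.5 and 2.13 CPM in pigment cells, against 73.4, 199, 112 and 277 CPM in glia (log2 fold change -4.78 ± 0.48, SE, adjusted p = 5.0e-05). The trehalase gene *Treh* had 20.9, 21.8, 18.8 and 17.7 CPM in pigment cells, against 74.8, 127, 311 and 42.3 CPM in glia (log2 fold change -2.15 ± 0.42, SE, adjusted p = 0.0026). The calls of *Pfk* (0.51) and *Tret1-1* (-1.80) were lost over *e* glia and that of *Treh* (-0.18) over *Vmat* glia.

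Among glutathione S-transferases and other redox genes, 16 of 36 tested members were higher in pigment cells and 6 in glia, with a median log2 fold change of 1.04. Reads of such close relatives can be split or lost in the counting. *GstE12* had 12223, 12741, 13237 and 10878 CPM in pigment cells, against 1271, 1348, 1544 and 1103 CPM in glia (log2 fold change 3.44 ± 0.18, SE, adjusted p = 1.4e-06). *GstE14* had 2496, 1490.2, 1255 and 2839 CPM in pigment cells, against 40.8, 14.6, 12.2 and 20.5 CPM in glia (log2 fold change 6.80 ± 0.25, SE, adjusted p = 3.6e-07). Neighbouring families split by side. *GstE5* and *GstO3* had log2 fold changes of 7.33 ± 0.38 and 6.62 ± 0.39. The gene *GstE9* had 7.11, 3.76, 6.63 and 3.96 CPM in pigment cells, against 1438, 1316, 1172 and 1375 CPM in glia (log2 fold change -7.74 ± 0.26, SE, adjusted p = 3.0e-07). *GstD3* was higher in pigment cells (1.65 ± 0.20) and *GstD2* in glia (-5.13 ± 0.54), while *GstD1* was held within 2-fold (-0.90 to -0.12), as was *GstS1* (-0.67 to 0.71). *GstE1* (1.23 ± 0.29), *GstE3* (3.17 ± 0.37), *GstO2* (2.19 ± 0.16), *GstT3* (1.19 ± 0.19) and *GstT4* (5.63 ± 0.73) were higher in pigment cells and *GstT2* (-2.0 ± 0.17) in glia. When the 1-day male library was left out, *GstE5* stood at 8.42 and *GstT4* at 7.83. When the female library was left out, *GstE5* stood at 6.67, *GstT4* at 4.86 and *GstD2* at -5.89, and *GstE1* lost its call (0.92). When the 7-day library was left out, *GstO3* stood at 7.41. Over *e* glia the direction of *GstT2* turned (2.43), and *GstD2* (-1.45) and *GstE1* (0.76) were not called. *GstE1* was not called with each cell weighted equally either (0.71).

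Glutathione is made by an enzyme of 2 subunits. The catalytic subunit gene *Gclc* had 20.1, 9.54, 15.5 and 26.8 CPM in pigment cells, against 70.0, 62.9, 75.3 and 127 CPM in glia (log2 fold change -2.0 ± 0.20, SE, adjusted p = 5.4e-05). The modifier subunit gene *Gclm* had 189, 80.1, 106 and 100.2 CPM in pigment cells, against 53.7, 43.9, 61.0 and 30.5 CPM in glia (log2 fold change 1.56 ± 0.24, SE, adjusted p = 0.00067), so the subunits had opposite directions. The thioredoxin reductase gene *Trxr-1* was higher in pigment cells (2.28 ± 0.23) and the extracellular superoxide dismutase gene *Sod3* in glia (-2.55 ± 0.23). *Sod1*, *Sod2* and *Trx-2* were held within 2-fold. The peroxiredoxin gene *Jafrac1* was not called (log2 fold change 1.00 ± 0.30, SE, adjusted p = 0.022), but was without the 3-day (1.10) or the 7-day (1.37) library. *Prx2540-1* and *Prx2540-2*, near-identical copies whose reads the counting could split, were not called either, and *Prx2540-2* was (2.89) without the 7-day library. *Gclc* was not called over *e* glia (-1.43), nor was *Gclm* with each cell weighted equally (0.80).

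Iron, zinc and copper genes were partly shared. The ferritin subunit genes *Fer1HCH* and *Fer2LCH* had intervals of -0.14 to 0.55 and -0.05 to 0.63 and the metallothionein gene *MtnA* had 3840.2 to 8099 CPM in pigment cells, against 2847 to 5805 CPM in glia without a call, except when the 7-day library was left out (1.02). *Tsf1*, the secreted iron carrier transferrin, had 214, 263, 338 and 178 CPM in pigment cells, against 3650.0, 8089.5, 8805 and 7992 CPM in glia (log2 fold change -4.59 ± 0.28, SE, adjusted p = 2.8e-06), and both were above 15.5 to 38.9 CPM in photoreceptors. The zinc transporter gene *ZnT63C* and the copper transporter gene *Ctr1B* were higher in pigment cells, by 3.56 ± 0.21 and 3.21 ± 0.43 on the log2 scale. Of 8 tested genes of metal handling, 3 were higher in pigment cells and 2 in glia, against 16.8% and 20.1% of all genes tested. *Ctr1B* had 3.81 without the 7-day library.

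Synthesis of eye pigments set the sides apart. Of 9 tested pteridine genes 7 were higher in pigment cells and 1 in glia, with a median log2 fold change of 5.04. *Pu*, the GTP cyclohydrolase of the first step, had 8633, 2589.5, 1515 and 8951 CPM in pigment cells, against 158, 26.4, 26.5 and 80.6 CPM in glia (log2 fold change 6.50 ± 0.27, SE, adjusted p = 5.0e-07). *se*, which makes a precursor of the red drosopterins, had 7390.1, 2388, 2224 and 6239.5 CPM in pigment cells, against 152, 23.4, 26.5 and 58.4 CPM in glia (log2 fold change 6.54 ± 0.26, SE, adjusted p = 4.3e-07). In pigment cells both genes were highest in the 1-day libraries of either sex. Photoreceptors had 15.5 to 117 CPM of *Pu* and 21.8 to 95.7 CPM of *se*. The tetrahydropterin synthase gene *pr* (5.04 ± 0.44), the phenylalanine hydroxylase gene *Hn* (6.75 ± 0.34), the sepiapterin reductase gene *Sptr* (2.30 ± 0.18) and *DhpD* (1.92 ± 0.54) were higher in pigment cells as well. The member higher in glia was *ry*, the xanthine dehydrogenase, which is named here after its value was seen. *Hn* had 7.39 without the 1-day male library. *DhpD* was not called without the 1-day male (1.82) or the 3-day (1.5) library, and had 2.78 without the female library. Its call was also lost with *Pdh* at 10% or more in pigment cells (1.46) and with each cell weighted equally (1.2).

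Pigments are carried into granules by ABC transporters. *w*, whose product White is a subunit of both transporters, had 174, 76.6, 62.4 and 248 CPM in pigment cells, against 2.72, 0, 0 and 0.871 CPM in glia (log2 fold change 7.38 ± 0.39, SE, adjusted p = 1.3e-06). Its partner for pteridines, *bw*, had 343, 274, 334 and 450.5 CPM in pigment cells, against 2.04, 2.93, 2.03 and 2.61 CPM in glia (log2 fold change 7.46 ± 0.24, SE, adjusted p = 3.0e-07). Its partner for ommochromes, *st*, had 45.7 to 70.4 CPM in pigment cells, against 0 to 2.03 CPM in glia (log2 fold change 6.39 ± 0.47, SE, adjusted p = 7.3e-06). No glial value of the 3 exceeded 3 CPM, so they passed the count filter through their pigment sums only, and their calls are a description. *w* had a log2 fold change of 8.36 without the 1-day male and 6.68 without the female library, and *st* one of 5.46 without the female library. *Rab32*, a GTPase of granule biogenesis, had 5203, 3325, 3118 and 4600.0 CPM in pigment cells, against 128, 42.5, 81.4 and 64.5 CPM in glia (log2 fold change 5.97 ± 0.28, SE, adjusted p = 7.1e-07). The clot gene *cl*, which acts in drosopterin synthesis, had 2396, 2179.6, 2375 and 2579.7 CPM in pigment cells, against 123, 114, 126 and 103 CPM in glia (log2 fold change 4.58 ± 0.18, SE, adjusted p = 4.1e-07). Of 13 tested granule genes 6 were higher in pigment cells and 1 in glia, and *p* was among them by a smaller step of 1.75 ± 0.21. *kar*, which encodes a putative monocarboxylate transporter of the ommochrome group, went the other way, with 134, 113, 63.5 and 217 CPM in pigment cells, against 709.6, 275, 216 and 1227 CPM in glia (log2 fold change -1.79 ± 0.24, SE, adjusted p = 0.00029), and was a shared support gene. Over *e* glia its direction turned (3.48).

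Members of the families of ion transport genes had opposite directions. The sodium pump is made of the alpha subunit Atpalpha and a beta subunit encoded by *nrv1*, *nrv2* or *nrv3*. *Atpalpha* had 1003, 703, 955 and 788 CPM in pigment cells, against 1224, 934, 716 and 472 CPM in glia, held within 2-fold (-0.13 to 0.78) with overlapping values. *nrv1* had 1213, 865, 749 and 1482 CPM in pigment cells, against 31.3, 30.7, 20.3 and 33.5 CPM in glia (log2 fold change 5.43 ± 0.20, SE, adjusted p = 3.3e-07). The gene *nrv2* had 43.3, 49.4, 34.3 and 52.7 CPM in pigment cells, against 1750.2, 1540.0, 1215 and 737 CPM in glia (log2 fold change -4.60 ± 0.28, SE, adjusted p = 2.7e-06). The beta subunits were thus opposite, with no overlap in either. *nrv3* had 313, 75.5, 73.5 and 98.1 CPM in pigment cells, against 456, 490.4, 151 and 346 CPM in glia, and 3875 to 6717 CPM in photoreceptors (log2 fold change -1.31 ± 0.33, SE, adjusted p = 0.0097). This call was lost without the 3-day library (-0.93), without the block (-1.12), over *e* glia (-0.94) and when glia with PPO or inner rhodopsin transcripts were left out (-0.99), and its direction turned over *Vmat* glia (0.24). *Atpalpha* was lower in pigment cells than in *e* glia (-1.53).

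Gap junctions were also divided. *ogre*, an innexin that couples glia, had 361, 338, 281 and 399 CPM in pigment cells, against 2592, 2550.1, 1766 and 3209 CPM in glia (log2 fold change -2.64 ± 0.16, SE, adjusted p = 2.2e-06). Its partner *Inx2* had 234, 176, 115 and 399 CPM in pigment cells, against 1059.6, 739, 661 and 1236 CPM in glia (log2 fold change -1.88 ± 0.19, SE, adjusted p = 6.0e-05). A further innexin, *Inx3*, had 298, 236, 249 and 332 CPM in pigment cells, against 65.3, 39.5, 54.9 and 51.8 CPM in glia (log2 fold change 2.63 ± 0.18, SE, adjusted p = 4.7e-06). All 3 lay above every photoreceptor value, which were at most 9.47 CPM. The carbonic anhydrase gene *CAH2* had 3279, 3086, 2818 and 3418 CPM in pigment cells, against 276, 302, 389 and 136 CPM in glia (log2 fold change 3.83 ± 0.31, SE, adjusted p = 1.4e-05). *CAH1* had 233, 138, 171 and 356 CPM in pigment cells, against 269.8, 1038, 1125 and 61.0 CPM in glia, with 690.4 to 1568 CPM in photoreceptors. It was not called (log2 fold change -0.77 ± 0.92, SE, adjusted p = 0.51), but was (-1.76) without the female library. The chloride cotransporter gene *Ncc69* (-2.51 ± 0.28), its activating kinase gene *fray* (-3.79 ± 0.26) and the potassium channel gene *Irk3* (-7.74 ± 0.25) were higher in glia. Of 18 tested genes of ion and water transport and gap junctions, 4 were higher in pigment cells and 11 in glia. Over *e* glia *ogre* (-0.45), *Inx2* (-0.48) and *Inx3* (1.27) were not called, and over *Vmat* glia *CAH1* turned (3.26).

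Signalling genes of the Notch and EGF receptor pathways differed between the sides. Of 9 tested members 3 were higher in pigment cells and 5 in glia, against 16.8% and 20.1% of all genes tested. *N*, the Notch receptor, had 118, 149, 182 and 58.8 CPM in pigment cells, against 223, 271, 342 and 163 CPM in glia and was not called (log2 fold change -0.82 ± 0.17, SE, adjusted p = 0.0039). *fng*, a glycosyltransferase that modifies Notch, had 3.41, 3.76, 4.97 and 4.87 CPM in pigment cells, against 544, 501, 435 and 438 CPM in glia (log2 fold change -6.64 ± 0.21, SE, adjusted p = 3.0e-07). Among ligands of the EGF receptor, *vn*, the neuregulin-like Vein, had 313, 319.8, 482 and 209.5 CPM in pigment cells, against 89.0, 51.2, 52.9 and 39.2 CPM in glia (log2 fold change 2.69 ± 0.21, SE, adjusted p = 1.2e-05). The gene *spi*, the TGF-alpha-like Spitz, had 25.0, 21.6, 35.4 and 29.2 CPM in pigment cells, against 279, 179, 201 and 358 CPM in glia (log2 fold change -2.97 ± 0.21, SE, adjusted p = 5.5e-06). The ligands thus stood on opposite sides. *rho*, the protease that releases Spitz, had 2.90, 0.753, 1.10 and 3.65 CPM in pigment cells, against 308, 277, 389 and 234 CPM in glia (log2 fold change -6.79 ± 0.38, SE, adjusted p = 1.8e-06). Of the inhibitors, the secreted Argos of *aos* was higher in pigment cells (1.55 ± 0.30) and the intracellular Sprouty of *sty* higher in glia (-2.20 ± 0.18).

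**Figure D4:**
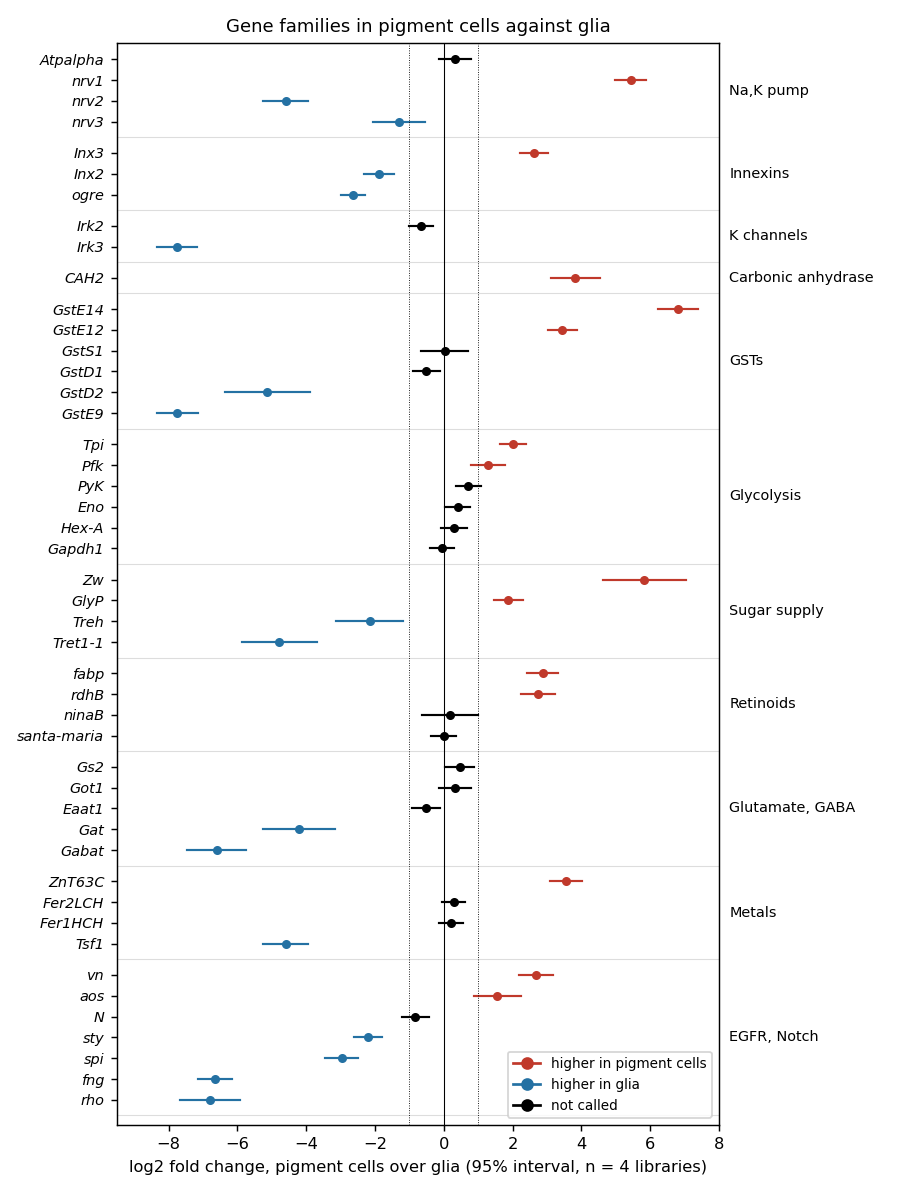
Log2 fold change of pigment cells over glia (x axis), with its 95% interval over 4 libraries, of members of 11 groups of genes, with genes higher in pigment cells in red, genes higher in glia in blue and genes not called in black. Members of the sodium pump, innexin, glutathione S-transferase and EGF receptor groups lie on both sides of 0, while *santa-maria*, *Gs2*, *Gapdh1* and both ferritin genes lie between the dotted lines at -1 and 1.

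Of 15 tested transcription factors of eye development 9 were higher in pigment cells and 5 in glia. *gl*, the zinc finger factor Glass, had 58.1, 76.8, 112 and 71.0 CPM in pigment cells, against 0, 8.78, 4.07 and 0.871 CPM in glia (log2 fold change 5.26 ± 0.51, SE, adjusted p = 4.2e-05). *toy*, a Pax6 gene, had 115, 64.3, 64.1 and 129 CPM in pigment cells, against 2.72, 0, 0 and 0.436 CPM in glia (log2 fold change 6.91 ± 0.42, SE, adjusted p = 2.5e-06). Photoreceptors had 146 to 183 CPM of *gl* and 23.6 to 62.2 CPM of *toy*, above every value in glia. Leaving out the 3-day library moved *gl* to 6.36, and *toy* had 8.40 without the 1-day male and 6.22 without the female library. *hth*, the homeodomain factor Homothorax, overlapped between the sides (log2 fold change 1.22 ± 0.36, SE, adjusted p = 0.019). Its call was lost without the 1-day male (0.87) or the female (1.11) library, without the block (1.07) and under the study's limits on genes and mitochondrial share (0.94). *ct*, the homeodomain factor Cut of cone cells and some glia, had 16.1, 45.7, 27.6 and 2.44 CPM in pigment cells, against 172, 109.8, 348 and 83.7 CPM in glia (log2 fold change -2.98 ± 0.52, SE, adjusted p = 0.0014). *pros*, the factor Prospero, had 7.01, 1.51, 3.87 and 2.44 CPM in pigment cells, against 59.8, 68.8, 118 and 3.05 CPM in glia (log2 fold change -3.44 ± 0.57, SE, adjusted p = 0.001). In the female library *pros* did not stand above the pigment range, and *ct* had -3.67 without the 3-day library. Over *Vmat* glia the direction of *ct* turned (0.74).

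Of 8 tested factors and regulators of glia, *repo* aside, 5 were higher in glia and 1 in pigment cells. *pnt*, the ETS factor Pointed, had 2.10, 1.51, 0 and 0.914 CPM in pigment cells, against 257, 139, 236 and 183 CPM in glia (log2 fold change -6.93 ± 0.39, SE, adjusted p = 1.7e-06). *kay*, the Fos homologue, had 25.2, 34.1, 66.8 and 25.0 CPM in pigment cells, against 388, 378, 470.0 and 352 CPM in glia (log2 fold change -3.30 ± 0.21, SE, adjusted p = 2.9e-06). *loco*, a regulator of G protein signalling in glia, had a smaller difference, 15.4 to 22.5 CPM in pigment cells, against 64.0 to 83.4 CPM in glia (log2 fold change -1.75 ± 0.18, SE, adjusted p = 5.6e-05). No value of these 3 genes overlapped between the sides, but *loco* was not called over *Vmat* glia (-0.50).

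Septate junctions seal epithelia and the blood-brain barrier. Of 21 tested genes of these junctions and the barrier 3 were higher in pigment cells, 5 in glia and 13 not called, shares near those over all genes tested, of which 36.9% were called. *kune*, a claudin gene, had 55.6, 109, 117 and 47.2 CPM in pigment cells, against 57.8, 107, 89.5 and 73.6 CPM in glia, within 2-fold (-0.31 to 0.58). *pck* and *cora*, further components of the junction, were shared support genes with log2 fold changes of 0.78 ± 0.21 and 0.72 ± 0.19, and *pck* was called (1.03) without the female library. Those higher in glia included the barrier receptor gene *moody*, with 76.1, 28.6, 34.3 and 94.7 CPM in pigment cells, against 323, 173, 104 and 222 CPM in glia (log2 fold change -1.65 ± 0.22, SE, adjusted p = 0.00025), the drug transporter gene *Mdr65* (-3.10 ± 0.19), *Nrg* (-2.29 ± 0.22) and *bou* (-4.62 ± 0.32). *crim* was higher in pigment cells (2.45 ± 0.21). Among genes of extracellular matrix and adhesion, 3 of 16 were higher in pigment cells and 8 in glia. Over all genes tested the shares were 16.8% and 20.1%. *bdl*, an immunoglobulin protein of the retina, had 5463, 2055, 1709.8 and 6834 CPM in pigment cells, against 355, 215, 181 and 210.0 CPM in glia (log2 fold change 4.09 ± 0.34, SE, adjusted p = 1.5e-05). *rst*, which sorts pigment cells between ommatidia, had a log2 fold change of 5.25 ± 0.29 and *ed*, the adhesion gene echinoid, one of 2.99 ± 0.27. *SPARC*, a collagen-binding protein, had 9.42, 12.8, 4.97 and 7.31 CPM in pigment cells, against 2240.3, 5614, 2570.0 and 2068 CPM in glia (log2 fold change -8.16 ± 0.29, SE, adjusted p = 3.3e-07). *Fas2* (-2.22 ± 0.23), *Fas1* (-2.88 ± 0.22) and the E-cadherin gene *shg* (-1.96 ± 0.20) were higher in glia, and *Fas3* was within 2-fold (-0.55 to 0.26). Over *e* glia *moody* turned (0.57) and *Nrg* was not called (-0.72).

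Glia clear debris by engulfment, and 6 of 13 tested genes of this process were higher in glia and 2 in pigment cells. Over all genes tested the shares were 20.1% and 16.8%. The receptor gene *drpr* had 23.1, 9.79, 14.9 and 14.3 CPM in pigment cells, against 80.9, 60.0, 63.1 and 32.7 CPM in glia (log2 fold change -1.66 ± 0.24, SE, adjusted p = 0.00044), although photoreceptors had 41.3 to 100.3 CPM. Its adaptor gene *ced-6* was a shared support gene with 126, 92.4, 98.3 and 200.1 CPM in pigment cells, against 276, 183, 254 and 203 CPM in glia and no call (log2 fold change -0.65 ± 0.23, SE, adjusted p = 0.043). Of 2 Rac GTPases, *Rac1* was within 2-fold (-0.39 to 0.28) and *Rac2* higher in glia (-1.19 ± 0.15). *Mmp2*, a metalloprotease, had 1.30, 0.251, 0.552 and 0.609 CPM in pigment cells, against 114, 79.1, 44.8 and 110.2 CPM in glia (log2 fold change -6.57 ± 0.30, SE, adjusted p = 6.5e-07, or -7.17 without the 1-day male library), and the scavenger receptor gene *pes* was higher in glia (-1.29 ± 0.14), whereas the adaptor gene *Crk* was higher in pigment cells (1.34 ± 0.16). The direction of *pes* turned over *e* glia (2.24), and *Crk* was not called with each cell weighted equally (0.94).

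Immune peptides were found in pigment cells. Of 10 tested immune genes 9 were higher in pigment cells and 1 in glia, with a median log2 fold change of 6.89. Over all genes tested 16.8% and 20.1% were higher on these sides, with a median of -0.02. Genes with almost no UMIs in glia, such as *Dro*, *BomS2* and *BomS4*, passed the count filter through their pigment sums only. Their calls were thus largely set by the filter, and the counts are a description. *BomT3*, a Bomanin, one of the secreted peptides of the Toll response, had 2518, 2713, 1337 and 2794 CPM in pigment cells, against 39.4, 16.1, 8.14 and 24.0 CPM in glia (log2 fold change 7.00 ± 0.28, SE, adjusted p = 4.3e-07). *BomS3* had 888, 335, 185 and 1325 CPM in pigment cells, against 12.9, 2.93, 0 and 7.84 CPM in glia (log2 fold change 7.08 ± 0.32, SE, adjusted p = 6.7e-07). *Dro*, the antibacterial peptide Drosocin, had 63.9, 40.7, 166 and 60.9 CPM in pigment cells and no UMI in glia, and was at least 112-fold higher in pigment cells. *BomS1*, *BomS2*, *BomS4* and *BomBc3* were higher in pigment cells too, at 28.2 to 167 CPM against at most 2.72 CPM in glia. *PGRP-LC*, the receptor of the Imd pathway, was higher in glia, with 27.4, 22.6, 27.6 and 34.7 CPM in pigment cells, against 114, 61.5, 83.4 and 119 CPM in glia (log2 fold change -1.52 ± 0.17, SE, adjusted p = 9.8e-05). The rest of the 31 listed immune genes had too few counts to be tested. *PGRP-LC* was not called over *e* glia (-1.03).

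Photoreceptors signal with histamine, which glia inactivate by coupling it to beta-alanine. Of 7 tested genes 2 were higher in pigment cells and 3 in glia. *e*, the synthase Ebony that makes this conjugate, had 7.21, 1.25, 0 and 9.75 CPM in pigment cells, against 723, 815, 1349 and 129 CPM in glia (log2 fold change -6.75 ± 1.00, SE, adjusted p = 0.00057). *b*, which makes beta-alanine, had 42.5, 42.4, 57.5 and 56.3 CPM in pigment cells, against 671, 1606, 2812 and 85.4 CPM in glia (log2 fold change -3.82 ± 0.83, SE, adjusted p = 0.0045). In the female glia both were far lower than in the males. Without the female library *e* had -7.89 and *b* -4.70, and without the 7-day library they had -6.01 and -3.12. Over *Vmat* glia the direction of *b* turned (3.88). Without the 3-day library *e* had -6.15. The transporter gene *ine* was not called (log2 fold change -0.85 ± 0.19, SE, adjusted p = 0.0047), except without the female library (-1.04). *HisCl1*, a histamine-gated chloride channel, had 55.1, 51.0, 64.6 and 56.0 CPM in pigment cells, against 0.680, 5.86, 0 and 0.436 CPM in glia (log2 fold change 5.63 ± 0.50, SE, adjusted p = 2.4e-05), or 7.01 without the 3-day library. Of 8 tested genes of the circadian clock 2 were higher on each side, near the shares over all genes tested. *Pdfr*, the receptor of the clock neuropeptide PDF, had 10.2, 25.1, 29.8 and 3.05 CPM in pigment cells, against 152, 67.3, 104 and 114 CPM in glia (log2 fold change -2.76 ± 0.56, SE, adjusted p = 0.0032), and *Pdp1* and *cry* differed by under 2-fold, with -0.87 ± 0.15 and 0.91 ± 0.16 on the log2 scale, and *cry* just passed the limit (1.00) without the 1-day male library. *Pdfr* was not called over *e* glia (-1.11).

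The 2 kinds of glia bear on what is shared, and their levels are a description with no test. Glia with at least 3 UMIs of *Vmat* and fewer of *e* numbered 93, 43, 55 and 109, and glia with at least 3 UMIs of *e* and fewer of *Vmat* numbered 30, 11, 14 and 21. Only 1, 0, 0 and 1 had 3 of both, and 34, 30, 18 and 26 had fewer than 3 of either. *santa-maria* had 1364, 1418, 1235 and 1656 CPM in the glia with *Vmat*, and 14.3, 22.8, 0 and 6.16 CPM in the glia with *e*. The level shared with pigment cells was thus in the kind with *Vmat*. *Gs2* had 4019, 3012, 3032 and 6218 CPM in the glia with *Vmat*, and 8031, 10048, 9298 and 4616 CPM in the glia with *e*, and was in both kinds.

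Many genes followed the split. Means over the libraries in glia with *Vmat* and glia with *e* were 12714 and 1283 CPM for *fabp*, 13377 and 314 CPM for *Idgf4* and 9221 and 1.54 CPM for *Ect3*. In the other direction they were 403 and 5721 CPM for *nrv2*, 314 and 3204 CPM for *Atpalpha*, 25.3 and 3858 CPM for *CAH1* and 3.14 and 8132 CPM for *b*. *Eaat1* and *Gat* had 65.2 and 418 CPM and 3.33 and 279 CPM, in the same order, and *ct* had 7.86 and 764 CPM. *lbm*, *fng* and *pnt* were similar in both, with 199 and 194 CPM, 463 and 511 CPM and 232 and 235 CPM. Of the 230 shared support genes, 203 met the rule with only the *Vmat* glia, 125 with only the *e* glia and 111 with each. Fewer genes could be tested with the *e* glia, 4794 against 5767 with the *Vmat* glia. Transcripts of other cells were in the sums of the *e* glia. The photoreceptor arrestin gene *Arr2* had 1327, 20142, 363 and 801 CPM there. In the 7-day library *PPO1* and *PPO2* had 11857 and 16944 CPM in the *e* glia, against at most 3.57 CPM in the *Vmat* glia. The part of such transcripts in the values over *e* glia was not tested. *PPO1* and *PPO2* of the 7-day glia lay in 3 cells. Leaving out glia with these or with rhodopsins of inner photoreceptors gave 1057 genes higher in pigment cells, 1205 higher in glia and 233 shared support genes.

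**Figure D5:**
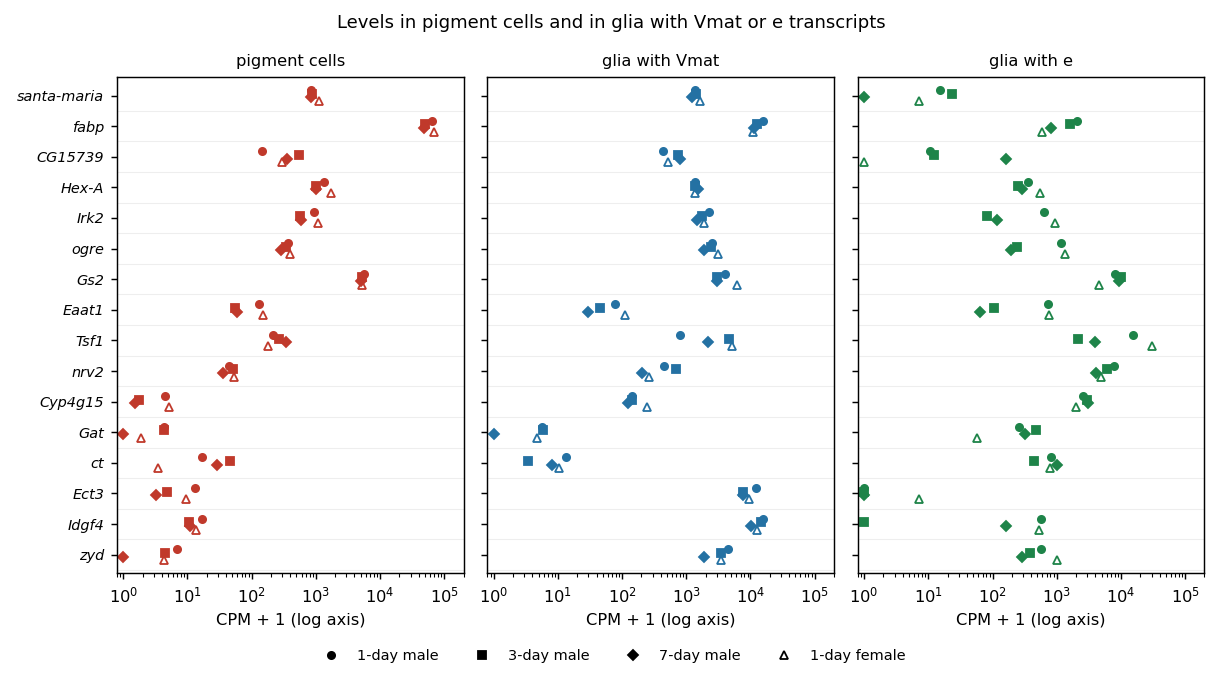
Level in each library, as CPM + 1 on a log axis, of 16 genes in pigment cells (left), in glia with at least 3 UMIs of *Vmat* (middle) and in glia with at least 3 UMIs of *e* (right), with a symbol for each library. *santa-maria*, *fabp*, *Ect3* and *Idgf4* lie higher in the glia with *Vmat*, *nrv2*, *Gat* and *ct* higher in the glia with *e*, and *Gs2* lies over 1000 CPM in all 3 panels.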

How the data were processed

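The submitters' processing notes name Cell Ranger 6.0.1 and the dm6 build, and the deposited UMI counts of the authors are whole numbers for each gene and barcode, without normalization. Free RNA, doublets and cells other than those of the eye are still in these counts. The members and the gene lists were chosen with earlier results of these data known.

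Counts of the gated cells were summed per library and side and tested with edgeR 4.0.16 in R 4.3.3 (TMM factors, filterByExpr, quasi-likelihood test with Benjamini-Hochberg adjustment, library as a block). Genes with an adjusted p under 0.05 and an absolute log2 fold change over 1 were called. *Pdh*, *repo*, *ninaE* and *fne* stayed in the totals and out of the tests. The sides of a library come from the same eyes and run. Their deviations from the side means had r of 0.346, 0.161, 0.238 and 0.305 within libraries and -0.227 to 0.103 between them. Deviations from a mean of the same 4 libraries offset each other, which by itself lowers the values between libraries. All p-values measure the spread between these 4 libraries. CPM are relative to all UMIs of a sum.

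Named genes were the 10 largest differences in each direction among those called, with the same sign in the 4 libraries and at least 50 CPM in all 4 sums of the higher side, the 10 shared support genes with the largest smaller difference over photoreceptors, and list members with a mean of at least 50 CPM on either side. Doublets were not removed, and an alternative left out the cells with the highest scrublet scores (scanpy 1.11.5), at 0.8% per 1000 barcodes, since the automatic threshold marked 819, 0, 0 and 0 barcodes. Other alternatives were DESeq2 1.42.0, other gates, scalings and limits. Counting intervals and floors (3 counts over a side, 95% confidence) cover counting error only. Positions are from the Ensembl release 115 annotation, in dm6 coordinates, for 13918 of 13964 genes. Promoter motifs were not analysed here.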

Additional observations from a re-analysis of the deposited data

Results flagged for a closer look

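For each gene named above, the difference of log2(CPM + 1), pigment cells minus glia, was taken within each library, and a library was singled out when its gap to the nearest of the others exceeded Dixon's limit for the share of the range of the 4. Chance alone singles out about 1 in 20 such genes (5%), and 10 of 182 were. Sexes and ages have 1 library each, so nothing is read from which library it was.

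The female library stood apart for *Got2* (1.11, against 0.42 to 0.48 in the others), *N* (-1.46, against -0.91 to -0.86) and *cl* (4.64, against 4.22 to 4.27). The 1-day male library stood apart for *GstT4* (2.99, against 6.90 to 7.18 in the others). The 3-day library stood apart for *Timp* (-1.36, against -0.36 to -0.21). The 7-day library stood apart for *Npc2a* (-1.08, against -1.45 to -1.39), *Vmat* (-10.64, against -9.52 to -9.31) and *fbp* (3.71, against 6.21 to 6.48), where *fbp* had 20.3 CPM in the 7-day glia and at most 3.92 CPM in the other glia. *PPO1* and *PPO2* stood at -11.15 and -11.66 in the 7-day library and at 0 to 0.32 in the others, and nearly all UMIs of both in glia lay in 3 barcodes.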

How the results depend on the processing

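Without the replicate block, which drops the pairing of the sides by library, 982 genes were higher in pigment cells and 1178 in glia, 967 and 1169 of them the same genes, and the calls of *nrv3* (-1.12), *apolpp* (-1.43) and *hth* (1.07) were lost. Leaving out 1 library gave 959 to 1120 genes higher in pigment cells, 1194 to 1288 higher in glia, 999 to 1039 shared genes, 452 to 526 of them within 2-fold and 230 to 264 called, and 236 to 245 shared support genes. Thinning each cell to 1000 UMIs left 2906 genes tested and 560 and 712 calls. Without the fold limit 1593 genes were higher in pigment cells and 538 shared genes were called. At 20 CPM 2036 genes were shared, 1035 within 2-fold, 526 called and 443 support genes, and at 100 CPM the numbers were 521, 317, 107 and 118. Other alternatives set before, DESeq2 among them (1033 and 1179 calls), moved these counts by less than 1.5 times.

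The glia with *e*, chosen after seeing the data, gave 736 genes higher in glia, 237 shared genes within 2-fold and 137 support genes, and shifted the median of all genes by 0.17. Signs turned for *CG15739* (3.76), *Timp* (3.19), *santa-maria* (6.66), *Irk2* (1.55), *egr* (0.15), *CG5346* (1.79), *kar* (3.48), *Atpalpha* (-1.53), *moody* (0.57), *pes* (2.24), *ACC* (1.23) and *GstT2* (2.43), and the calls of *ogre* (-0.45), *Inx2* (-0.48) and *Nrg* (-0.72) were among those lost. With the *Vmat* glia signs turned for *b* (3.88), *nrv3* (0.24), *CAH1* (3.26) and *ct* (0.74). With each cell weighted equally the median of all genes shifted by -0.16, and *Gclm* (0.80), *Crk* (0.94), *GstE1* (0.71) and *DhpD* (1.2) were not called. Of 3750 values of 180 named genes under all alternatives 3639 kept their call or lack of one, with no turn of sign where a call was made. Turns of sign between settings without a call are inside this count. An example was *CAH1*, at -0.77 in the main setting and 0.06 without the 3-day library. Of 13964 genes 6038 had enough counts to be tested, so the rest were not compared.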
